A study of Homo sapiens with 6 samples.

Results

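The E2F family of transcription factors was examined in U87 glioma cells that expressed IL-33 or an IL-33 mutant, with attention to E2F7. The members were E2F1 to E2F8 and the dimerization partners TFDP1 and TFDP2, and every probe set annotated to one of these symbols alone was taken. This gave 26 probe sets of 49293 and 10 genes of 18132. The family was picked on a measured value, the level of E2F7 near background in the control, so the levels of E2F7 against the control are given below as a description, without a test. That rule used neither the E2F7 difference between the IL-33 constructs nor any value of the other 9 genes, but earlier results of these data were known when the family was chosen, so the tests on these are not independent of that knowledge.

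The cells were U87, an established human glioma line, stably transfected and profiled on 6 Affymetrix PrimeView arrays, whose probe sets lie mostly near the 3′ end of transcripts. Of these, 3 arrays came from clones 3, 5, 9 carrying full-length IL-33, and 2 from clones 3 and 4 carrying an IL-33 without its nuclear localization signal (ΔNLS). The single control array held cells with the empty pcDNA vector. All 6 arrays thus carried a pcDNA construct, each clone is 1 selected line, and the sources do not say whether the RNA came from separate cultures, so the p-values rest on the spread among these clones alone. The cells were grown in culture. None of 3 leukocyte markers lay above background on any group's arrays, and PTPRC, the pan-leukocyte marker CD45, lay between 2.14 and 2.25 on every array, below the background level of 4.80. Vimentin (VIM), abundant in glioma cells, lay between 13.71 and 13.94, and of 8 glioma and progenitor markers 4 lay above background on all IL-33 arrays, 5 on both ΔNLS arrays and 7 in the control. Of 3 neuron markers 2 lay above background on all arrays of every group, and of 3 epithelial markers 1 did. Of 3 endothelial markers 2 did so in the control and IL-33 groups and 1 in the ΔNLS group. Of 2 oligodendrocyte markers 0 did. Levels are log2 intensities, and background is the 95th percentile of 359 probe sets for olfactory receptors. Fewer cells with a transcript and less transcript per cell cannot be told apart in such bulk RNA.

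E2F proteins bind promoters of genes needed for DNA replication and set their activity as cells pass from G1 into S phase. E2F1, E2F2 and E2F3 are known as activators, E2F4 and E2F5 repress together with the pocket proteins p107 and p130, and E2F6 represses as part of a polycomb complex without pocket proteins. These bind DNA as dimers with DP1 or DP2, the products of TFDP1 and TFDP2. E2F7 and E2F8 are atypical: they bind DNA without a DP partner and repress E2F target genes, among them E2F1.

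The transfected gene was read first as a check of the labels. The IL33 probe set with the highest mean had levels of 8.38, 6.40 and 9.50 in the IL-33 clones (numbers 3, 5, 9) and of 6.50 and 6.62 in ΔNLS clones 3 and 4, against 3.46 in the control. With this probe set all 5 clones were above the control and above background, and IL-33 clone 5 was at the level of the ΔNLS clones. With another IL33 probe set, 11751426_a_at, all 5 clones were also above the control (2.52). There ΔNLS clone 3 (4.62) lay below background, and IL-33 clone 5 (5.21) lay above both ΔNLS clones (4.62 and 4.85). The ΔNLS arrays differed from the other arrays at both ends of their range. The 95th percentile of the olfactory receptor probe sets was 4.60 on both, against 4.89 to 4.97 on the IL-33 and control arrays. Their highest values were 14.10 and 14.07, against 13.77 to 13.80. Their median over all probe sets was 5.43, against 5.61 to 5.62. The median difference over all probe sets was -0.12 for ΔNLS minus control and 0.14 for IL-33 minus ΔNLS, so differences that involve ΔNLS should be read against these shifts. A median shift need not hold alike for bright and dim probe sets. Construct and array set cannot be told apart for the ΔNLS clones.

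The promoters of E2F7, which had the largest difference from the control, and of TFDP1, which was called in both constructs, are shown as sequence because E2F genes are themselves known targets of E2F proteins. The windows run from 250 bases before to 50 bases after the transcription start on the gene's strand (RefSeq, GRCh38.p14), at chr12:77065520-77065819 (minus strand) for E2F7 and at chr13:113584503-113584802 (plus strand) for TFDP1. Capitals mark a match to the E2F motif TTTCGCGC or TTTGGCGC on either strand.
E2F7: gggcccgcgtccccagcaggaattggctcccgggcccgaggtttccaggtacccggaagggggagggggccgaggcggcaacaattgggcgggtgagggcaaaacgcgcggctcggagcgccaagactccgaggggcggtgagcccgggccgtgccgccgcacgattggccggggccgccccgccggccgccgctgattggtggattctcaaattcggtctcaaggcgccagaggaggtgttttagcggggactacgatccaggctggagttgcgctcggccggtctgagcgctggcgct
TFDP1: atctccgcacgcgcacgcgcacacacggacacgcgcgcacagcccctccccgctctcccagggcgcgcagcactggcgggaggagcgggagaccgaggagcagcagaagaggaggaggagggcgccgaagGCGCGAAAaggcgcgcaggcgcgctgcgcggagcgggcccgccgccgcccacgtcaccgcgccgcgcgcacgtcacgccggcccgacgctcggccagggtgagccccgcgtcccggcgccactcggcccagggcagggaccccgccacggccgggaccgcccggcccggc
The TFDP1 window held 1 match, GCGCGAAA, which is TTTCGCGC read on the other strand at position -120 from the start. Neither 8-base motif was found in the E2F7 window. Of 35116 promoter windows of 300 bases, 0.515% held TTTCGCGC, 0.652% held TTTGGCGC and 1.15% held either. Of the 10 members, 8 had a window in the table, and besides TFDP1 only E2F1 (TTTGGCGC, position -20) and E2F2 (TTTGGCGC, position -42) held a match. These matches are letters in a window and were not tested for binding.

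E2F7, on chromosome 12, was read by a pair of probe sets. With 11730029_a_at its level was 9.05, 9.84 and 9.15 in the IL-33 clones (numbers 3, 5, 9) and 9.14 and 8.87 in ΔNLS clones 3 and 4, against 2.69 in the control. All 5 clones lay far above background and the control lay below it. Because the control was below background, the difference has only a bound, at least 23.3-fold (4.54 on the log2 scale) in the IL-33 clones and at least 18.4-fold (4.20) in the ΔNLS clones, taken against the background level. The measured differences were 6.66 (IL-33 minus control) and 6.31 (ΔNLS minus control).

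The second E2F7 probe set, 11730030_a_at, also had every clone above the control, with a far smaller gap. Its level was 6.53, 6.73 and 6.61 in the IL-33 clones and 6.57 and 6.75 in the ΔNLS clones, against 5.88 in the control. Here the control was above background. The measured differences were 0.74 for IL-33 minus control and 0.78 for ΔNLS minus control. The probe sets therefore disagree on the size of the difference by several log2 units, and the position of their probes in the transcript was not given in the sources used here.

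**Figure D1:**
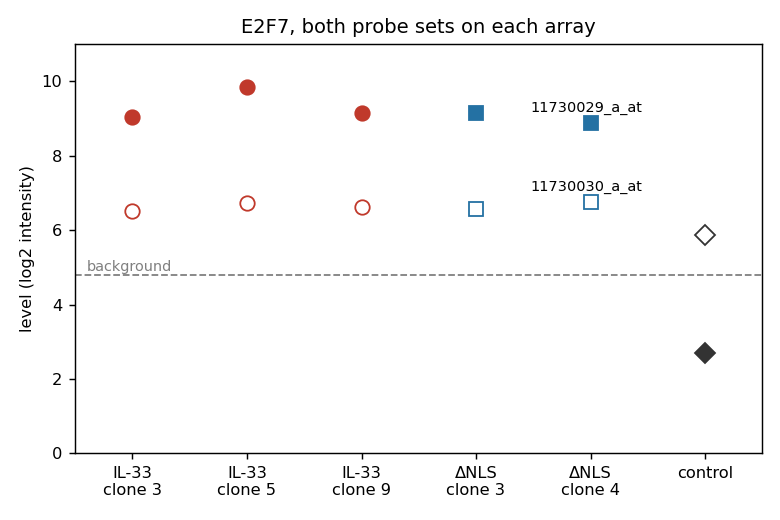
Levels of the E2F7 probe sets 11730029_a_at (filled symbols) and 11730030_a_at (open symbols) on each of the 6 arrays, in log2 intensity, with the background level of 4.80 dashed. The 5 clones lie between 8.87 and 9.84 with the first probe set and between 6.53 and 6.75 with the second, and the control at 2.69 and 5.88.

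Between the constructs, E2F7 did not differ beyond the spread of the clones. IL-33 minus ΔNLS was 0.34 ± 0.25 (SE) with 11730029_a_at (95% interval -0.27 to 0.96, adjusted p = 0.302) and -0.04 ± 0.11 with 11730030_a_at (-0.31 to 0.24, adjusted p = 0.816), by limma over all probe sets. The clones overlapped with both probe sets. Ordered by the first probe set, IL-33 clone 5 was highest, clone 9 and ΔNLS clone 3 came next at almost equal levels, and ΔNLS clone 4 was lowest of the clones. This interval does not show that the constructs act alike, since it holds differences up to 0.96.

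Profiles most like that of 11730029_a_at were sought over the 6 arrays, 1 probe set per gene, by the root mean square difference after each profile was centred on its mean. The nearest gene was MAGEA1, a cancer-testis antigen on the X chromosome, at a distance of 0.38, followed by SLITRK2 at 0.49, TPD52 at 0.67, B3GALNT1 at 0.75 and GPR37 at 0.80. MAGEA1 had levels of 8.49, 9.71 and 9.12 in the IL-33 clones and 9.21 and 9.34 in the ΔNLS clones, against 3.26 in the control. All 5 genes were below background in the control and above it in every clone. With 6 arrays and 1 of them far from the rest, likeness of this kind follows almost entirely from the gap between the clones and the single control.

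The genes beside E2F7 on chromosome 12 were read as well, 5 measured genes on each side in RefSeq order. SYT1, which encodes the synaptic vesicle calcium sensor synaptotagmin-1 and lies beyond NAV3 on one side, had levels of 6.46, 7.20 and 6.04 in the IL-33 clones and 5.67 and 5.59 in the ΔNLS clones, against 3.18 in the control. It rose by 3.38 ± 0.41 in the IL-33 clones (adjusted p = 0.0135) and by 2.45 ± 0.43 in the ΔNLS clones (adjusted p = 0.00847). Since its control level was below background, the bounds are at least 3.39-fold and at least 1.77-fold, and both calls were lost when either ΔNLS clone was left out or values below background were set to it. The other SYT1 probe sets also had a control level below background. They were higher in the IL-33 clones by at least 1.86-fold (adjusted p = 0.0461) and at least 2.56-fold (adjusted p = 0.0198). In the ΔNLS clones the second of these was higher by at least 1.59-fold (adjusted p = 0.0115), and the first lay below background in both ΔNLS clones, so it has no fold there.

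NAV3, a microtubule-binding protein gene and the direct neighbour of E2F7, moved otherwise. Its level was 8.15, 8.15 and 8.34 in the IL-33 clones and 6.51 and 6.64 in the ΔNLS clones, against 7.96 in the control. NAV3 fell by 1.38 ± 0.14 in the ΔNLS clones (adjusted p = 0.00222) and was not called in the IL-33 clones (0.26, adjusted p = 0.296). On the other side CSRP2 fell by 0.84 ± 0.18 in the ΔNLS clones (adjusted p = 0.0140) and did not pass in the IL-33 clones (-0.38, adjusted p = 0.224). PTPRQ, the outermost gene, lay below background on all 6 arrays. The remaining 6 neighbours (NAP1L1, BBS10, OSBPL8, ZDHHC17, PAWR and PPP1R12A) passed the test against the control with neither construct. The 620 genes of chromosome 12 that lay above background had a median shift from the control of 0.02 to 0.04 in the IL-33 clones and of -0.07 and -0.12 in the ΔNLS clones.

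**Figure D2:**
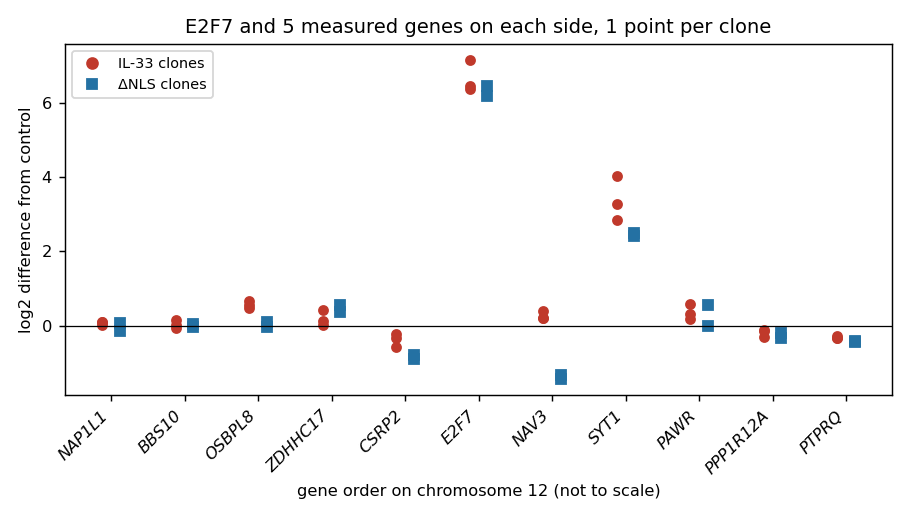
Log2 difference from the control for each of the 5 clones, for E2F7 (probe set 11730029_a_at) and 5 measured genes on each side in chromosomal order, with IL-33 clones as circles and ΔNLS clones as squares. E2F7 and SYT1 are higher in every clone, NAV3 is lower in the ΔNLS clones alone, and the other genes stay within about 1 log2 unit of the control.

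For the other 9 members, counts were taken over 24 probe sets. In IL-33 minus control 4 probe sets rose, 0 fell and 20 did not pass the test, while 10 had an unadjusted p below 0.05, as had 12802 of all 49293 probe sets. Over all probe sets 3.21% rose and 4.10% fell in this comparison. All 4 belonged to TFDP1. For ΔNLS minus control the counts were 5 that rose, 3 that fell and 16 that did not pass, beside 13.7% higher and 25.7% lower over all probe sets. In IL-33 minus ΔNLS, counted over all 26 probe sets, 6 were higher, 1 was lower and 19 did not pass, beside 31.8% higher and 15.1% lower over all. The median differences of the members in these comparisons were 0.27, 0.04 and 0.30, beside 0.02, -0.12 and 0.14 over all probe sets. The members' share of calls was below the background share for probe sets lower against the control and for both directions between the constructs. It was above it for probe sets higher against the control, where TFDP1 supplied 4 of the 4 and 4 of the 5 calls.

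**Figure D3:**
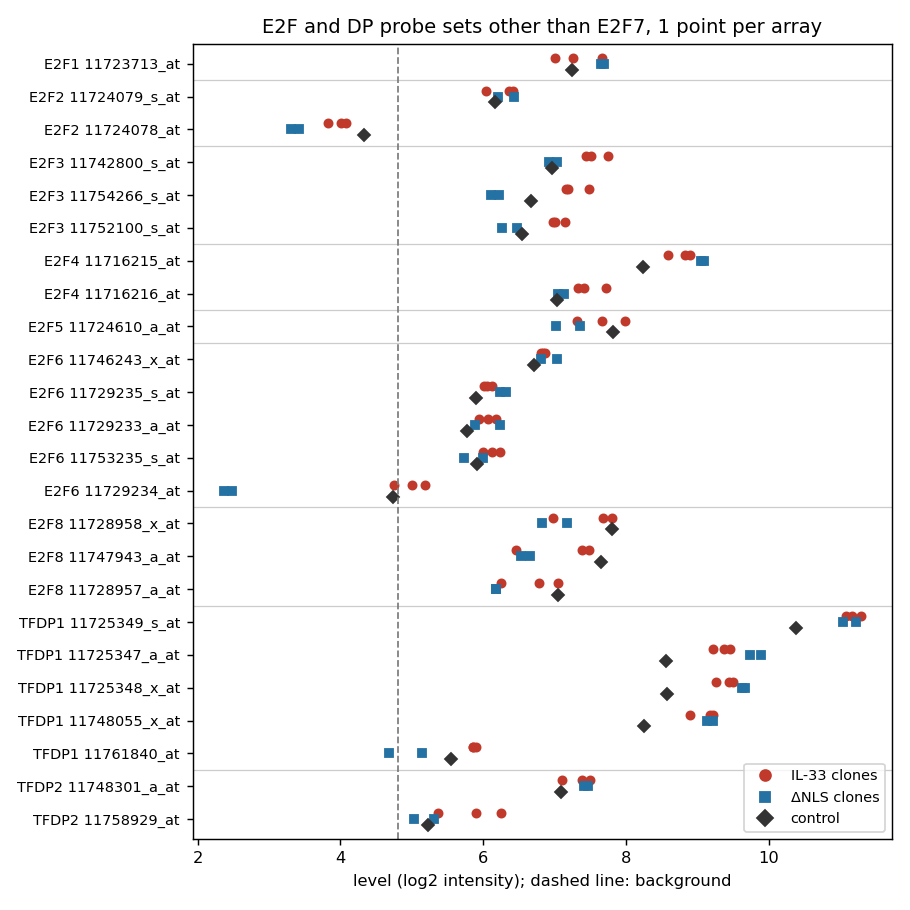
Levels of the 24 probe sets of the 9 other members, in log2 intensity, with 1 point per array (IL-33 clones as circles, ΔNLS clones as squares, control as diamonds) and the background level of 4.80 dashed. The control is the lowest point of 4 TFDP1 probe sets, and the ΔNLS clones stand at 2.37 and 2.48 on 1 E2F6 probe set.

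TFDP1, which encodes the main DP partner of the E2F proteins and lies on chromosome 13, was the member with the broadest change. The probe set 11725349_s_at had levels of 11.09, 11.29 and 11.16 in the IL-33 clones and 11.22 and 11.03 in the ΔNLS clones, against 10.39 in the control. It rose by 0.79 ± 0.12 in the IL-33 clones (1.73-fold, adjusted p = 0.0244) and by 0.74 ± 0.13 in the ΔNLS clones (1.67-fold, adjusted p = 0.0085). The probe set 11725347_a_at was at 9.21, 9.37 and 9.46 in the IL-33 clones and at 9.73 and 9.89 in the ΔNLS clones, against 8.55 in the control. All clones were above the control, and with this probe set the ΔNLS clones were also above the IL-33 clones (IL-33 minus ΔNLS -0.46 ± 0.11, adjusted p = 0.0163, lost without either ΔNLS clone).

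The probe sets 11725348_x_at and 11748055_x_at moved the same way. They rose by 0.82 (adjusted p = 0.0246) and 0.85 (adjusted p = 0.0330) in the IL-33 clones, and by 1.07 (adjusted p = 0.00348) and 0.93 (adjusted p = 0.00846) in the ΔNLS clones. The fifth TFDP1 probe set, 11761840_at, went against these in the ΔNLS clones, with levels of 5.85, 5.90 and 5.85 in the IL-33 clones and 5.14 and 4.68 in the ΔNLS clones, against 5.55 in the control. It fell by 0.64 ± 0.20 in the ΔNLS clones (adjusted p = 0.0475, past the threshold in 3 of 10 alternative settings) and 1 of its ΔNLS values was below background. Probe sets of 1 gene read the same RNA and are not independent of each other.

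The rise of TFDP1 in the IL-33 clones depended on how the spread was estimated. All 4 calls were lost when IL-33 clone 9 or either ΔNLS clone was left out, or when only the IL-33 and control arrays were fitted, with adjusted p up to 0.137, while the differences stayed between 0.74 and 0.95. With values below background set to it, only 11725348_x_at kept its call. In the ΔNLS clones the calls of 11725347_a_at and 11725348_x_at held in all 10 alternative settings, that of 11725349_s_at was lost without ΔNLS clone 3, and that of 11748055_x_at without either ΔNLS clone. The 188 genes of chromosome 13 that lay above background had a median shift from the control of 0.27, 0.36 and 0.31 in the IL-33 clones (numbers 3, 5, 9) and 0.17 and 0.08 in ΔNLS clones 3 and 4, so the TFDP1 differences stood on a chromosome whose genes were higher as a whole in the IL-33 clones. The part of that shift in the TFDP1 result was not tested.

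TFDP2, which encodes the other DP partner and lies on chromosome 3, was not called. Its probe set 11748301_a_at was at 7.11, 7.38 and 7.50 in the IL-33 clones and 7.40 and 7.46 in the ΔNLS clones, against 7.09 in the control (0.24, adjusted p = 0.469, and 0.34, adjusted p = 0.190). The probe set 11758929_at differed by 0.61 ± 0.33 in the IL-33 clones (adjusted p = 0.313), whose own levels ran from 5.37 to 6.24.

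Among the activators, E2F1, on chromosome 20, was at 7.26, 7.01 and 7.66 in the IL-33 clones and 7.70 and 7.65 in the ΔNLS clones, against 7.24 in the control. The IL-33 clones lay on both sides of the control. Neither difference passed the test (0.07 ± 0.25, adjusted p = 0.918, and 0.44 ± 0.26, adjusted p = 0.228). E2F2, on chromosome 1, was not called with 11724079_s_at (0.11, adjusted p = 0.792, and 0.16, adjusted p = 0.565). Its other probe set, 11724078_at, lay below background on all 6 arrays, so its calls (lower in ΔNLS minus control, higher in IL-33 minus ΔNLS) carry no fold.

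E2F3, on chromosome 6, was the activator that separated the constructs. With 11754266_s_at its level was 7.48, 7.15 and 7.19 in the IL-33 clones and 6.22 and 6.11 in the ΔNLS clones, against 6.67 in the control. Every IL-33 clone was above the control and each ΔNLS clone was below it. IL-33 minus ΔNLS was 1.11 ± 0.13 (2.16-fold, adjusted p = 0.00195), and this call held in all 10 alternative settings. The same comparison gave 0.67 ± 0.11 with 11752100_s_at (adjusted p = 0.00565, also held in all 10) and 0.59 ± 0.13 with 11742800_s_at (adjusted p = 0.0120, lost when either ΔNLS clone was left out).

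Against the control the E2F3 differences did not pass the test. In the IL-33 clones they were 0.60, 0.61 and 0.50 with 11742800_s_at, 11754266_s_at and 11752100_s_at (adjusted p = 0.0784, 0.0834 and 0.0934), and in the ΔNLS clones 0.01, -0.50 and -0.17 (adjusted p = 0.972, 0.0684 and 0.412). All E2F3 levels were well above background, and the construct difference was larger than the shift of 0.14 over all probe sets in the same comparison. On chromosome 6 the median shift from the control was 0.10 to 0.18 in the IL-33 clones and 0.01 and -0.03 in the ΔNLS clones. With quantile normalization, IL-33 minus ΔNLS passed the test with all 3 E2F3 probe sets. The part of the chromosome 6 shift in the E2F3 result was not tested.

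Of the repressors that work with pocket proteins, E2F4, on chromosome 16, was at 8.83, 8.89 and 8.59 in the IL-33 clones and 9.04 and 9.09 in the ΔNLS clones, against 8.24 in the control, by 11716215_at. All 5 clones were above the control, and the ΔNLS difference passed the test (0.82 ± 0.16, 1.77-fold, adjusted p = 0.0104) while the IL-33 difference did not (0.53 ± 0.15, adjusted p = 0.0872). IL-33 minus ΔNLS was -0.30 (adjusted p = 0.0819), so the constructs were not shown to differ. The other E2F4 probe set, 11716216_at, was at 7.41, 7.72 and 7.33 in the IL-33 clones and 7.13 and 7.05 in the ΔNLS clones, against 7.03 in the control, with no call. With it IL-33 minus ΔNLS was 0.39 (limma adjusted p = 0.0619), opposite in direction to that of 11716215_at. The E2F4 call in the ΔNLS clones therefore rests on 1 of 2 probe sets, and it was lost when either ΔNLS clone was left out (adjusted p up to 0.0744). E2F5, on chromosome 8, was not called in either construct (-0.17, adjusted p = 0.786, and -0.63, adjusted p = 0.129).

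E2F6, the polycomb-linked repressor on chromosome 2, was read by 5 probe sets. With 4 of them the differences ranged from 0.13 to 0.29 in the IL-33 clones and from -0.05 to 0.38 in the ΔNLS clones, and none passed the test. The largest, 11729235_s_at in ΔNLS minus control (limma adjusted p = 0.0590), passed in 3 of 10 alternative settings. One of these was quantile normalization, with which IL-33 minus ΔNLS passed too. On chromosome 2 the median shift from the control was -0.10 to -0.08 in the IL-33 clones and -0.29 and -0.33 in the ΔNLS clones. The fifth, 11729234_at, was at 5.01, 4.76 and 5.18 in the IL-33 clones and 2.48 and 2.37 in the ΔNLS clones, against 4.74 in the control. The control and both ΔNLS clones were below background there, and so was IL-33 clone 5. The calls (ΔNLS minus control -2.31, adjusted p = 0.00148, and IL-33 minus ΔNLS 2.55 ± 0.14, adjusted p = 0.000542) thus carry a bound of only 1.13-fold for IL-33 over ΔNLS and no fold against the control, and both were lost when values below background were set to it.

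E2F8, the other atypical member, on chromosome 11, had no call with all arrays. With 11747943_a_at its level was 7.39, 6.46 and 7.49 in the IL-33 clones and 6.66 and 6.53 in the ΔNLS clones, against 7.65 in the control. With all 3 E2F8 probe sets no clone was above the control. None of the differences passed the test: with 11728958_x_at, 11747943_a_at and 11728957_a_at they were -0.32, -0.54 and -0.35 in the IL-33 clones (adjusted p = 0.636, 0.468 and 0.526) and -0.80, -1.06 and -0.87 in the ΔNLS clones (adjusted p = 0.123, 0.0934 and 0.0701).

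IL-33 clone 5 stood apart from the other IL-33 clones with E2F8. It was the lowest IL-33 clone with all 3 probe sets, by as much as 1.03 below the highest. Clone 5 was singled out on these same values, so the fits without it are a description and add no support. Without clone 5 the ΔNLS differences of E2F8 passed the test (adjusted p = 0.0207, 0.00435 and 0.0109). Clone 5 is not part of ΔNLS minus control, so those differences stayed the same and only the estimated spread changed. IL-33 minus ΔNLS was then 0.74, 0.84 and 0.74, against 0.48, 0.52 and 0.51 with all arrays, and passed the test too (adjusted p = 0.0140, 0.00421 and 0.00912). IL-33 minus control was nearer to 0 without clone 5, at -0.067, -0.22 and -0.13, and did not pass the test. Leaving out any other single clone gave no E2F8 call in any comparison. A fit of only the ΔNLS and control arrays, which also lacks clone 5 but was not chosen on it, gave E2F8 calls too. There ΔNLS minus control passed with 11747943_a_at and 11728957_a_at and not with 11728958_x_at. The same clone was the highest of the IL-33 clones with both E2F7 probe sets. It was lowest in 14 of the 26 member probe sets (53.8%), beside 31.8% of the 11587 genes above background. The 14 were those of E2F1, E2F2, E2F3, E2F5 and E2F8, and those of E2F6 except 11729235_s_at. These shares are not like for like. The members are counted by probe set, several per gene and some at or below background, and the genes by 1 probe set each. The 14 also include the 3 E2F8 probe sets on which clone 5 was singled out.

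**Figure D4:**
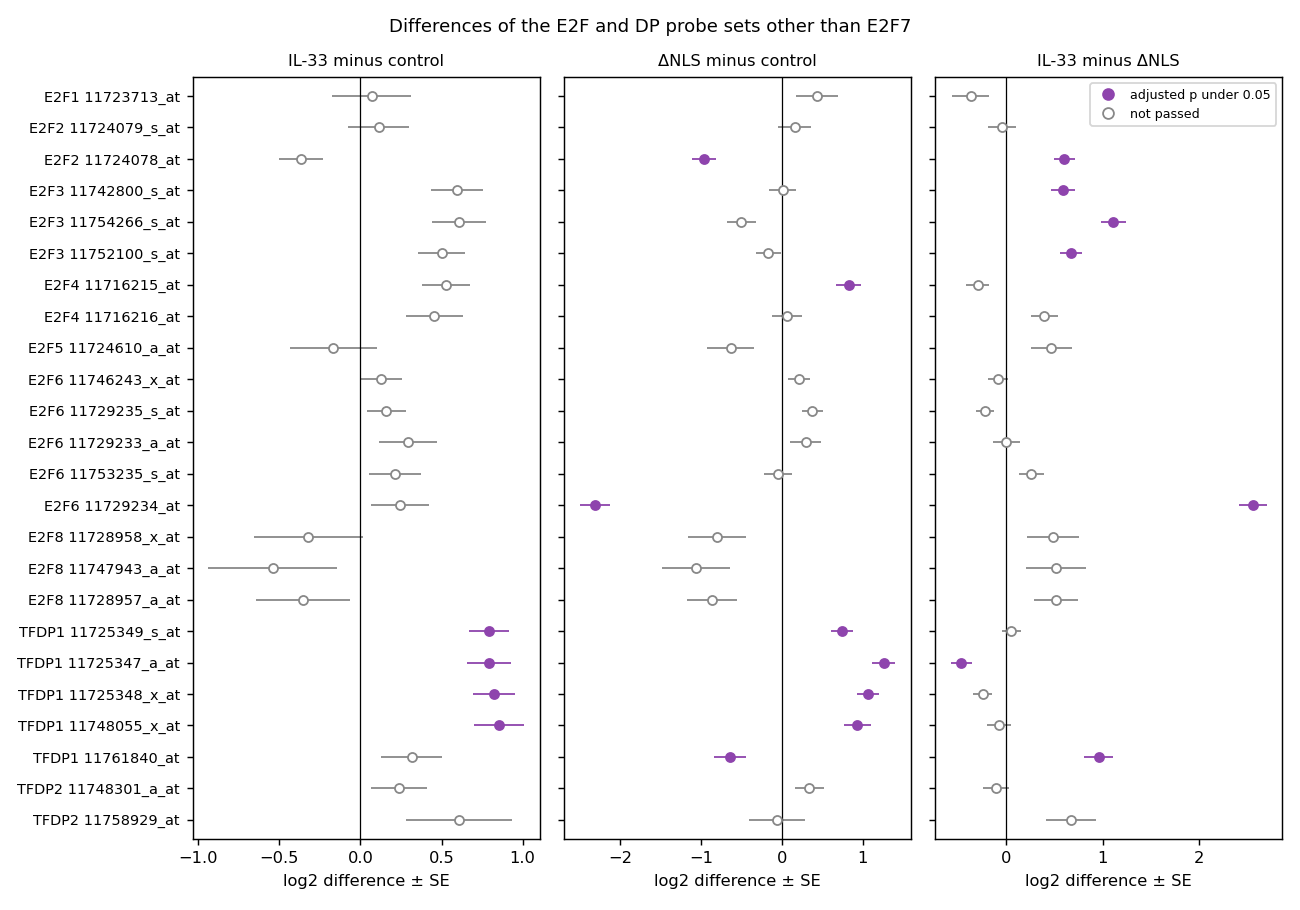
Log2 differences ± SE of the 24 probe sets of the members other than E2F7, for IL-33 minus control, ΔNLS minus control and IL-33 minus ΔNLS, with filled points for an adjusted p under 0.05. In IL-33 minus control the 4 filled points are TFDP1, and in IL-33 minus ΔNLS all 3 E2F3 probe sets are filled and positive.

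Genes that act with or downstream of the E2F proteins were read from 6 lists, 1 probe set per gene, with 69 of 74 genes measured. In IL-33 minus control 5 of the 69 rose, 3 fell and 61 did not pass, beside 3.57% higher and 3.92% lower over all 18132 genes. Against the control, 12 rose in the ΔNLS clones, 14 fell and 43 did not pass, beside 14.8% higher and 23.3% lower. In IL-33 minus ΔNLS 18 were higher, 13 were lower and 38 did not pass, beside 30.9% higher and 15.9% lower. All 8 calls in IL-33 minus control were lost in a fit of only those arrays or without either ΔNLS clone, as was every other call in that comparison. The median differences of the 69 genes were -0.04, -0.01 and 0.10, beside 0.04, -0.09 and 0.13 over all genes.

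Of the 8 pocket protein and MuvB genes, whose products hold E2F target genes silent outside S phase, 1 rose in IL-33 minus control. Over all genes 3.57% rose and 3.92% fell in that comparison. RBL2, which encodes the pocket protein p130, was at 8.67, 8.61 and 8.54 in the IL-33 clones and 8.11 and 8.01 in the ΔNLS clones, against 7.62 in the control. It rose by 0.99 ± 0.12 in the IL-33 clones (adjusted p = 0.0127) and by 0.44 ± 0.12 in the ΔNLS clones (adjusted p = 0.0353). RB1, the retinoblastoma gene, was at 7.27, 7.23 and 7.15 in the IL-33 clones and 6.61 and 6.49 in the ΔNLS clones, against 7.05 in the control. RB1 fell by 0.51 ± 0.13 in the ΔNLS clones (adjusted p = 0.0270, past the threshold in 6 of 10 alternative settings and not with quantile normalization) and was higher in IL-33 than in ΔNLS clones by 0.67 ± 0.10 (adjusted p = 0.00347). LIN54, the DNA-binding subunit of MuvB, also fell in the ΔNLS clones (by 0.53, adjusted p = 0.0239), a call that was also lost with quantile normalization (-0.35). In IL-33 minus ΔNLS 5 of the 8 genes were higher and 0 lower, beside 30.9% and 15.9% over all genes, with a median of 0.44 (0.33 with quantile normalization, where the LIN54 call was lost at 0.24).

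The 8 G1 cyclins and CDKs, which inactivate the pocket proteins by phosphorylation, held no call in IL-33 minus control. The genes with the smallest p were CCNE2 (0.84 ± 0.23, adjusted p = 0.0819) and CCND3 (0.41 ± 0.12, adjusted p = 0.0952). The ΔNLS clones held 2 rises and 1 fall, beside 14.8% higher and 23.3% lower over all genes. CCND1, the cyclin D1 gene, was at 11.44, 11.63 and 11.14 in the IL-33 clones and 10.04 and 10.11 in the ΔNLS clones, against 11.38 in the control, and fell by 1.31 ± 0.20 in the ΔNLS clones (adjusted p = 0.00541). CDK4, its kinase partner, rose by 0.69 ± 0.11 there (adjusted p = 0.00595), and the second rise, CCND2, lay below background on every array.

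The CDK inhibitors restrain those kinases, and 6 of 7 were measured. CDKN1A, which encodes p21, was at 10.33, 10.33 and 10.39 in the IL-33 clones and 10.21 and 10.17 in the ΔNLS clones, against 9.81 in the control. It rose by 0.54 ± 0.09 in the IL-33 clones (adjusted p = 0.0295) and by 0.38 ± 0.10 in the ΔNLS clones (adjusted p = 0.0272). CDKN2D, which encodes p19, fell by 0.90 ± 0.17 in the IL-33 clones (adjusted p = 0.0336) and did not pass in the ΔNLS clones. The fall called for CDKN2A in the ΔNLS clones lay at the background, with 3.99 and 3.89 in the ΔNLS clones, against 4.87 in the control. In the PRC1.6 list, the polycomb complex that E2F6 joins, 8 of 9 genes were measured, none was called in IL-33 minus control, and in ΔNLS minus control CBX3 fell by 0.77 ± 0.11 (adjusted p = 0.00509) and RING1 rose by 0.41 ± 0.13 (adjusted p = 0.0492). The RING1 call was past the threshold in only 3 of 10 alternative settings.

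Of the 31 measured G1/S target genes, 3 rose and 2 fell in IL-33 minus control, beside 3.57% higher and 3.92% lower over all genes. GMNN, the inhibitor of replication licensing geminin, rose by 0.64 ± 0.10 (adjusted p = 0.0257), the replicative helicase subunit MCM7 by 0.61 ± 0.11 (adjusted p = 0.0327) and the flap endonuclease FEN1 by 0.57 ± 0.10 (adjusted p = 0.0328). The checkpoint kinase gene CHEK1 fell by 0.69 ± 0.11 (adjusted p = 0.0269) and the thymidine kinase gene TK1 by 0.82 ± 0.14 (adjusted p = 0.0297). In ΔNLS minus control 7 rose and 7 fell, beside 14.8% higher and 23.3% lower over all genes. DBF4, the activator of a kinase that starts replication, fell by 1.09 ± 0.13 (adjusted p = 0.00294) and the polycomb methyltransferase EZH2 by 1.23 ± 0.19 (adjusted p = 0.00521), while FEN1 rose by 0.91 ± 0.11 (adjusted p = 0.00299) and MCM2 by 0.73 ± 0.13 (adjusted p = 0.00767). The list therefore held calls in both directions with each construct, and its medians were 0.04 and 0.12.

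The 8 mitotic activators that follow the G1/S targets held 0 calls in IL-33 minus control by limma, with a median of -0.41. The genes with the smallest p were CCNA2, the cyclin A2 gene (-1.36 ± 0.38, adjusted p = 0.0870), and PLK1 (-0.48 ± 0.15, adjusted p = 0.110). In ΔNLS minus control CCNA2 fell by 1.53 ± 0.40 (adjusted p = 0.0283) and the transcription factor gene FOXM1 by 0.88 ± 0.17 (adjusted p = 0.0102), with a median of -0.50 over the list. These were the only calls of the 8 genes there, beside 14.8% higher and 23.3% lower over all genes. CCNA2 was at 9.14, 8.11 and 8.97 in the IL-33 clones and 8.57 and 8.55 in the ΔNLS clones, against 10.10 in the control. IL-33 clone 5 was the lowest IL-33 clone for 6 of the 8 mitotic genes and 6 of the 8 G1 cyclins and CDKs (75.0% each), and for a smaller share of each of the other 4 lists.

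**Figure D5:**
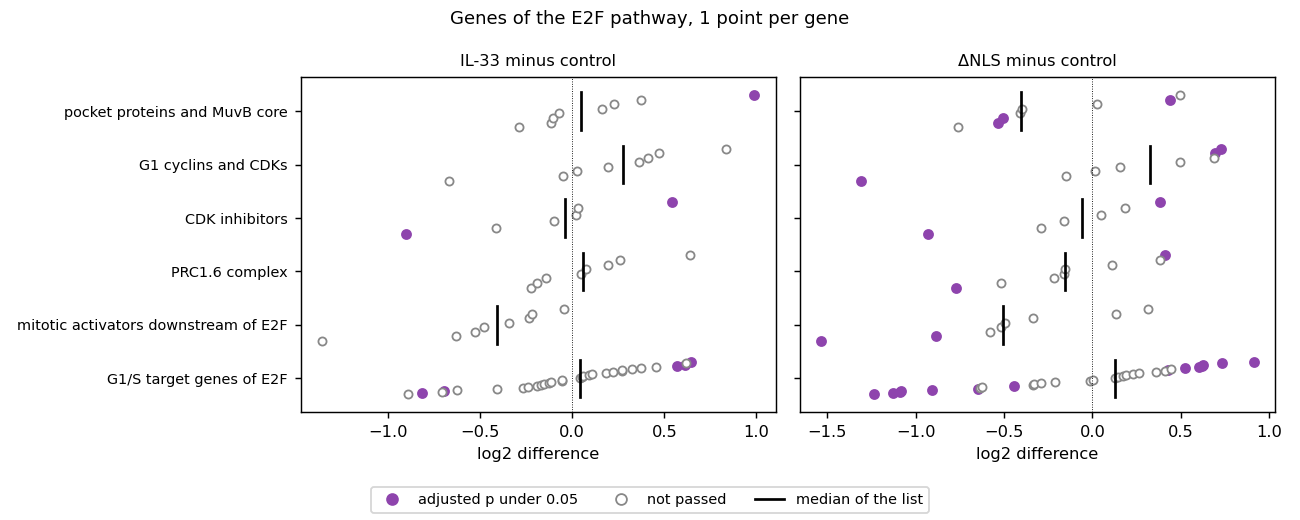
Log2 difference of each measured gene of the 6 E2F pathway lists, for IL-33 minus control and ΔNLS minus control, with filled points for an adjusted p under 0.05 and a bar at the median of each list. The mitotic list has medians of -0.41 and -0.50, and the G1/S targets spread to both sides of zero with medians of 0.04 and 0.12.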

How the data were processed

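The authors extracted total RNA from cultured cells, labelled it by in vitro transcription from the 3′ end and hybridized it to PrimeView arrays. Deposited values, 1 per probe set and array, were processed by the authors and were taken as log2 intensities. The labels name Partek 6.0, while background correction, normalization and log base are not given in the sources used here. Base 2 was taken because the highest value, 14.1, exceeds the largest 16-bit reading on a natural log (11.1) or log10 (4.82) scale. Arrays have no read depth, and their number (6) limits the precision.

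Of 49395 probe sets, 102 array controls were left out. The platform annotation gave 1 symbol for 44988 probe sets, several for 1832 and none for 2473, and 18112 of 18132 genes were matched in the RefSeq table. Differences were tested with limma 3.58.1 (R 4.3.3), lmFit and eBayes with a trend, two-sided, on 49293 probe sets in 1 fit of 6 arrays and 3 group means (3 residual degrees of freedom), with Benjamini-Hochberg adjustment over all of them and a threshold of 0.05. The spread of the control was taken from the clones. A count test named in the study's methods does not suit log2 values. Genes were counted by the probe set with the highest mean. The test was run on simulated data in which a probe set had the same spread on every array. That run could not check whether the control has the spread of the clones. Named genes were all member probe sets, up to 4 genes per list with the smallest p past the threshold (2 where none passed), 5 genes on each side of E2F7, the 5 most similar profiles, and IL33. PTPRC and VIM were added as markers, and the other SYT1 probe sets, CDKN2A and CCND2 were described after their values were seen. The members and lists were chosen with earlier results of these data known. Alternatives were quantile normalization, a fit of only the groups compared, each clone left out, eBayes without a trend, dim probe sets left out, values below background set to it, and probe sets averaged per gene.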

Additional observations from a re-analysis of the deposited data

Results flagged for a closer look

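With 4 member probe sets every IL-33 clone lay on one side of the control and every ΔNLS clone on the other, and the difference between the constructs passed limma's test. With E2F3, IL-33 minus ΔNLS was 1.11 ± 0.13 for 11754266_s_at (adjusted p = 0.00195) and 0.67 ± 0.11 for 11752100_s_at (adjusted p = 0.00565). The third E2F3 probe set differed by 0.59 in the same direction, with 1 ΔNLS clone on each side of the control. With E2F6 11729234_at the difference was 2.55 ± 0.14 (adjusted p = 0.000542), but both ΔNLS clones and the control were below background, and the other 4 E2F6 probe sets held no call. With TFDP1 11761840_at it was 0.96 ± 0.15 (adjusted p = 0.00418), against differences of -0.46 to 0.05 with the other 4 TFDP1 probe sets.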

How the results depend on the processing

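The count of member probe sets called in IL-33 minus control (4) was 0 in a fit of only the groups compared, 1 with values below background set to it, and 0 to 4 with a clone left out (0 without IL-33 clone 9 or either ΔNLS clone). The pathway count there (8) was 0 and 5 in these settings and 0 to 12 with a clone left out. In ΔNLS minus control the member count (8) was 5 with values below background set to it and 5 to 10 with a clone left out, and the pathway count (26) was 16 and 9 to 37. In IL-33 minus ΔNLS the member count (7) ran from 4 to 12 and the pathway count (31) from 9 to 38 with a clone left out. Over all probe sets IL-33 minus control held 1580 higher and 2022 lower calls, 0 in a fit of only the groups compared or without either ΔNLS clone (11865 to 11876 at an unadjusted p below 0.05, smallest adjusted p 0.0983), 365 and 516 without IL-33 clone 9, and 665 and 1400 with values below background set to it. The fits with 0 calls had 2 residual degrees of freedom, but so had the fits without an IL-33 clone, which held calls. The prior degrees of freedom that limma gave the spread were 1.23 in the fits with 0 calls. They were 2.84 to 3.14 in the fits without an IL-33 clone. The cause was not tested. In ΔNLS minus control 34.8% of calls were higher, and 50.5% with quantile normalization. In IL-33 minus ΔNLS these were 67.7% and 50.3%. Without ΔNLS clone 3 or clone 4, ΔNLS minus control held 3278 and 3333 higher and 7241 and 7514 lower calls (6752 and 12653 with all arrays), and IL-33 minus ΔNLS 9145 and 9101 higher and 3780 and 3582 lower (15657 and 7466). With values below background set to it these were 3417 higher and 5665 lower, and 6079 higher and 3878 lower.

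A single value counted as unchanged under an alternative if it kept direction and side of the threshold. A difference that became 0 where no call had stood also counted as unchanged. E2F7 against the control was not tested. It counted as unchanged if it shifted by less than the SD of the clones, and as moved otherwise. Of the single values, 674 were unchanged, 41 lost the call, 17 gained one, 3 moved and 20 changed sign, all of these 20 without a call. With quantile normalization these were E2F6 11753235_s_at (0.10) and TFDP2 11758929_at (0.16) in ΔNLS minus control, and E2F6 11729233_a_at (-0.14) in IL-33 minus ΔNLS. Over the fits with a clone left out, the range of the others that changed sign was as follows. In IL-33 minus control it was -0.11 to 0.22 for E2F1 and -0.33 to 0.00386 for E2F5. In ΔNLS minus control it was -0.046 to 0.063 for E2F3 11742800_s_at, -0.18 to 0.087 for E2F6 11753235_s_at and -0.21 to 0.076 for TFDP2 11758929_at. In IL-33 minus ΔNLS it was -0.15 to 0.073 for E2F2 11724079_s_at, -0.19 to 0.022 for E2F6 11746243_x_at, -0.17 to 0.17 for E2F6 11729233_a_at, -0.12 to 0.054 for E2F7 11730030_a_at, -0.044 to 0.14 for TFDP1 11725349_s_at, -0.14 to 0.024 for TFDP1 11748055_x_at and -0.19 to 0.00844 for TFDP2 11748301_a_at.

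Among the pathway genes, the calls in IL-33 minus control were all lost in a fit of only the groups compared and without either ΔNLS clone. In ΔNLS minus control the calls of CDK4, CBX3, CHEK1, DBF4, FEN1, EZH2 and MCM2 held in all 10 alternative settings, and those of RBL2, RB1, LIN54, CCND1, CDKN1A, RING1, CCNA2 and FOXM1, and of the E2F7 neighbour CSRP2, were lost without either ΔNLS clone. No paired analysis was possible because the constructs share only clone number 3. With 1 control array, no spread of the control was measured, and any peculiarity of that array enters every difference against it.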
